A study of Mus musculus with 15 samples.

Results

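The genes described here are the slow and fast isoforms of troponin and of the myosin light chains in the gastrocnemius of aged mice. They were listed by symbol as 5 slow genes (Tnnt1, Tnni1, Tnnc1, Myl2 and Myl3) and 5 fast partners (Tnnt3, Tnni2, Tnnc2, Mylpf and Myl1) from the known isoform pairs. The pairs themselves use no measured value, but the list was drawn up with earlier results of these data known. Each symbol matched 1 Ensembl identifier, so that 10 of the 55450 counted genes were included, and all 10 passed the filter on low counts that left 16920 genes for testing.

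Bulk polyA RNA sequencing had been performed on the gastrocnemius of 15 female C57BL/6JN mice older than 17 months, and each library came from 1 mouse. Mice labelled robust form the Low groups, with at most 1 positive frailty marker, and mice labelled frail form the High groups, with at least 2 among treadmill distance, grip strength, Rotarod latency, body weight and frailty index. Low Control (mice D8, D9, D11 and D98) and High Control (D23, D25 and D67) stayed in their cages. Low Run (D57, D61, D66 and D68) and High Run (D49, D52, D53 and D62) ran downhill on a treadmill on 2 consecutive days at 13 m/min and a decline of 22 degrees, and their muscle was taken 24 h after the last bout. The labels name no transgene or drug, and frailty was scored by percentiles within the cohort, so that the groups are relative to these mice. The comparisons ask how running changed the genes at either level of frailty, whether the frailty groups differed at rest or after running, and whether the running response itself differed (Frailty × Run).

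Troponin is the calcium switch of the thin filament: troponin C binds calcium, troponin I holds contraction off at rest, and troponin T ties the complex to tropomyosin. The light chains wrap the lever arm of myosin, the regulatory chain being a target of phosphorylation and the essential chain stabilizing the arm. Slow fibres and fast fibres use products of different genes for each of these subunits, and the mouse gastrocnemius is known as a mainly fast muscle. Myl2, Myl3 and Tnnc1 are also the genes used by the heart ventricle.

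The slow genes lie on GRCm38 at chr7:4504570-4516382 (Tnnt1, minus strand), chr1:135779434-135810989 (Tnni1, plus strand), chr14:31208312-31211729 (Tnnc1, plus strand), chr5:122100951-122113472 (Myl2, plus strand) and chr9:110741861-110769798 (Myl3, plus strand). The fast genes lie at chr7:142498836-142516009 (Tnnt3, plus strand), chr7:142441808-142444410 (Tnni2, plus strand), chr2:164777161-164779967 (Tnnc2, minus strand), chr7:127208890-127214298 (Mylpf, plus strand) and chr1:66924295-66945404 (Myl1, minus strand). All are protein-coding, and Tnnt3 and Tnni2 are neighbours. The exons of Tnnc2 share 592 of their 800 bases with Ube2c on the opposite strand, and Ube2c was measured at 63.8 to 160.5 CPM against 6698 CPM or more for Tnnc2.

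Promoter sequence from RefSeq (GRCm38.p6) was read for the 250 bases before each start site and was found for 8 of the 10 genes. The stretches shown belong to the troponin C pair, to Tnni1 and to Mylpf. They are examples of slow and fast genes with little exon of the basic GENCODE M21 annotation, a subset of transcripts, in the window. They are cut where an exon of that subset begins. They are written 5′ to 3′ on the gene's strand, with capitals marking the E-box letters CAGCTG or the MCAT letters CATTCC on either strand. The stretches are chr14:31208062-31208311 (plus strand) for Tnnc1, chr2:164779742-164779984 (minus strand) for Tnnc2, chr1:135799171-135799401 (plus strand) for Tnni1 and chr7:127211358-127211607 (plus strand) for Mylpf. Those of Tnni1 and Mylpf lie within the gene spans given above, and that of Tnnc2 reaches into its gene span. Exons of transcripts outside the basic subset were not cut out.
Tnnc1: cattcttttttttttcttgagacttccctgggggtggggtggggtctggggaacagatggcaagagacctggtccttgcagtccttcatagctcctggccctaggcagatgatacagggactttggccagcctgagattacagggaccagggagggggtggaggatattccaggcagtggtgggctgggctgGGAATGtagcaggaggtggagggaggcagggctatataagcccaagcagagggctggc
Tnnc2: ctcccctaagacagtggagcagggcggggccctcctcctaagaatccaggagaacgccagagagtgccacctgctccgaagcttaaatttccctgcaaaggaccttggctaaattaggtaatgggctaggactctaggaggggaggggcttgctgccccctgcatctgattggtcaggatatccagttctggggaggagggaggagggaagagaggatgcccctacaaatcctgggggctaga
Tnni1: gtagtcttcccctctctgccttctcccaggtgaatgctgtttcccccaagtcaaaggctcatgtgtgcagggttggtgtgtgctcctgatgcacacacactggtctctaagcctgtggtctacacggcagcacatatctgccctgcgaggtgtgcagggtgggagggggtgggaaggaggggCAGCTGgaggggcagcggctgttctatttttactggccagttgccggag
Mylpf: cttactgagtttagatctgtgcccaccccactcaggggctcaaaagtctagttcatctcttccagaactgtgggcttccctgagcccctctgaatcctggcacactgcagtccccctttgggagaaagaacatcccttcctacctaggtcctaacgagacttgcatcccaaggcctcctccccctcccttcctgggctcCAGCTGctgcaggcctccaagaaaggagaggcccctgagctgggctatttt
In Tnnc1 the MCAT letters stand on the reverse strand from position -58 before the start site, and in Tnni1 and Mylpf the E-box letters begin at -68 and -51. Tnni1 has 2 annotated start sites, and from the other one the same letters begin at -158. Tnnc2 holds neither in its stretch. Over all 32851 promoters of this length, 13% held CAGCTG and 12.6% held CATTCC on either strand, and 2.92% matched a MEF2 motif, which none of the 8 genes did. These are matches of letters and are not measured binding.

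Sequencing depth was 19395125 to 30699216 counts per mouse (median 25926420), and the 10 most abundant genes took 20.3% to 26.5% of them. Along the first principal component of log2 CPM, which held 25.7% of the variance, Low Control D9 stood at -99.1 and High Run D62 at -59.9, while the other mice lay between -22.5 and 31.8. Leaving out 1 mouse moved many of the values below, and examples of the larger shifts are given with them. The 5 myofibre markers summed to 60671 CPM or more in every mouse, whereas the 4 cardiac markers summed to 5.34 to 13.3 CPM.

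The fast genes were among the most abundant transcripts of the muscle, and each slow gene was far below its fast partner. Levels are given as CPM, counts scaled to a library of fixed size after TMM normalization. Together the 10 genes took 3.93% to 7.21% (median 5.35%) of the counts of a mouse, of which the slow genes contributed 0.0835% to 0.254%. On the scale of CPM per kb of exon, which allows genes to be compared, the mean level over 15 mice was 14048 ± 2203 (SD) for Tnnt3, 12669 ± 2991 for Tnnc2, 6984 ± 1547 for Mylpf, 5790 ± 1072 for Tnni2 and 2448 ± 577.7 for Myl1. These levels placed Tnnt3 and Tnnc2 at ranks 2 and 3 among 55190 genes with a known exon length, and Myl1 at rank 19.

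Among the slow genes the order per kb was Tnnc1 at 217.8 ± 83.1, Myl3 at 178.1 ± 56.8, Myl2 at 171.5 ± 55.3, Tnnt1 at 168.4 ± 52.7 and Tnni1 at 45.9 ± 16.8 (mean ± SD, 15 mice). Myl3 was above Myl2 in 9 of 15 mice and Myl2 above Tnnt1 in 8 of 15, so these 3 neighbours were not separated by their spread. Tnnc1 was above Myl3 in 12 mice, and Tnni1 lay below Tnnt1 in all 15. The fast genes kept their order more closely, with Tnnt3 above Tnnc2 in 14 mice and Mylpf above Tnni2 in 13.

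In High mice all 5 slow genes had higher mean levels after running, and the 5 fast genes had slightly lower ones. The differences were largest for Tnni1, Tnnc1 and Tnnt1 and reached an unadjusted p under 0.05 in those 3 of 10 genes, against a background of 3.28% of all tested genes that were higher at that threshold and 1.9% that were lower. No member passed an FDR of 0.1 (edgeR's quasi-likelihood F-test, adjusted over 16920 genes), and the background at that FDR was 0% in this comparison. DESeq2 and voom with quality weights also called 0 of the 10 members, while calling 15 and 45 genes over the whole table. Over all tested genes, 9676 of 16920 had a positive edgeR log2 fold change. The 5 myofibre markers summed to 74923 to 87565 CPM in High Control. In High Run they summed to 62845 (D49), 68694 (D52), 85032 (D53) and 60742 CPM (D62), and their part in the fast gene levels was not tested.

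Tnnt1 encodes slow troponin T. It was measured at 309.7, 347 and 223.6 CPM in the High Control mice D23, D25 and D67 and at 233.2, 398.6, 601.6 and 609.6 CPM in the High Run mice D49, D52, D53 and D62. The upper 3 High Run mice exceeded every High Control mouse and D49 lay within the control range. The log2 fold change was 0.65 ± 0.27 (SE, edgeR, unadjusted p = 0.0289, FDR = 0.956). Without D62 it was 0.48 (edgeR, unadjusted p = 0.0958). In Low mice the values were 315.0, 263.3, 319.1 and 356.6 CPM in Low Control and 308.7, 463.7, 412.5 and 404.7 CPM in Low Run, again with 1 running mouse, D57, inside the control range. That log2 fold change was 0.34 ± 0.25 (SE, edgeR, unadjusted p = 0.186, FDR = 0.506).

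Tnni1 encodes slow troponin I and gave the largest slow response. Its level was 127.8, 115.8 and 91.4 CPM in High Control (D23, D25, D67) and 108.7, 161.7, 268.2 and 310.6 CPM in High Run (D49, D52, D53, D62). The groups overlapped only through D49. The log2 fold change was 0.93 ± 0.29 (SE, edgeR, unadjusted p = 0.0056, FDR = 0.956), and 0.68 without D62 (edgeR, unadjusted p = 0.0235). Low Control mice had 139.1, 115.9, 152.6 and 173.7 CPM (D8, D9, D11, D98) and Low Run mice 136.7, 210.7, 170.0 and 196.6 CPM (D57, D61, D66, D68), so that D57 and D66 remained inside the control range. In Low mice the log2 fold change was 0.30 ± 0.26 (SE, edgeR, unadjusted p = 0.274), and 0.19 without D9.

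Tnnc1 encodes the troponin C shared by slow fibres and the heart. High Control mice had 184.3, 185.8 and 125.0 CPM (D23, D25, D67), and High Run mice had 140.2, 204.8, 391.9 and 430.9 CPM (D49, D52, D53, D62). Levels in D53 and D62 were the highest of all 15 mice, and D49 fell among the controls. The fitted log2 difference was 0.82 ± 0.31 (SE, edgeR, unadjusted p = 0.0184, FDR = 0.956) and 0.56 without D62 (edgeR, unadjusted p = 0.0755). In Low mice the gene was at 174.8, 161.1, 198.6 and 236.5 CPM in Low Control and at 186.4, 275.2, 232.9 and 272.7 CPM in Low Run, with overlap in D57 and D66. There, the log2 fold change was 0.33 ± 0.28 (SE, edgeR, unadjusted p = 0.267).

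Myl2 encodes the slow regulatory light chain. It was at 357.6, 266.8 and 186.7 CPM in High Control (D23, D25, D67) and at 169.0, 364.2, 496.4 and 559.6 CPM in High Run (D49, D52, D53, D62). The High Run values enclosed the control range on both sides, since D49 was the lowest of all 15 mice and 3 running mice exceeded every control. Its fitted log2 fold change was 0.56 ± 0.33 (SE, edgeR, unadjusted p = 0.11), 0.34 without D62 and 0.35 without D67. Low Control mice had 322.7, 210.5, 298.3 and 389.8 CPM (D8, D9, D11, D98) and Low Run mice 292.4, 429.0, 328.2 and 344.7 CPM (D57, D61, D66, D68), and only D61 left the control range. In Low mice the log2 fold change was 0.19 ± 0.30 (SE, edgeR, unadjusted p = 0.534), falling to 0.04 without D9 and to 0.07 without D61.

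Myl3 encodes the slow essential light chain. Its level was 398.1, 374.7 and 216.7 CPM in High Control (D23, D25, D67) and 208.2, 441.3, 603.5 and 540.7 CPM in High Run (D49, D52, D53, D62). As with Myl2, D49 was the lowest of all mice and the other 3 running mice were above every High Control mouse. Its fitted log2 fold change was 0.44 ± 0.31 (SE, edgeR, unadjusted p = 0.172), with 0.21 without D67, 0.27 without D53 and 0.67 without D49 (edgeR, unadjusted p = 0.0181). In Low mice the values were 336.5, 243.6, 298.8 and 341.0 CPM in Low Control and 256.6, 475.9, 323.0 and 401.4 CPM in Low Run, with a log2 fold change of 0.26 ± 0.28 (SE, edgeR, unadjusted p = 0.381). It was 0.09 without D61, 0.15 without D9 and 0.39 without D57. D61 and D68 were above all Low Control mice.

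**Figure D1:**
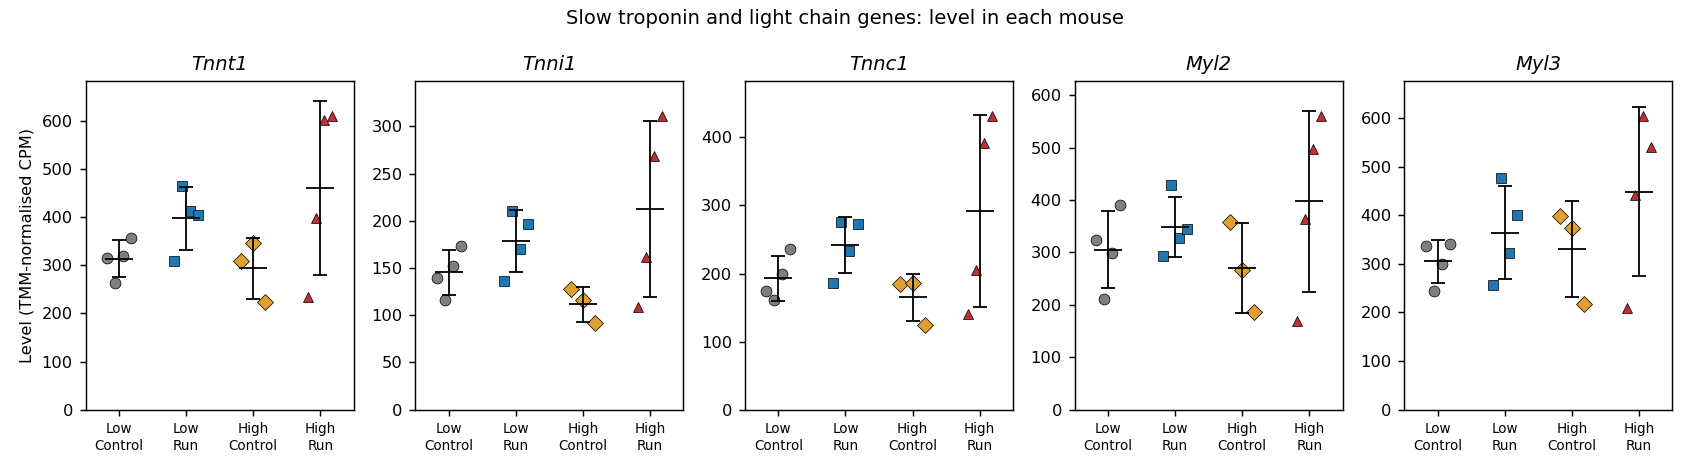
Level of each slow gene in TMM-normalised CPM (linear axis from 0), with 1 point per mouse, the group mean as a horizontal bar and the SD as the error bar (n = 4, 4, 3 and 4). The High Run group spans the widest range for every slow gene, from 108.7 to 310.6 CPM for Tnni1.

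The 3 genes past the unadjusted threshold in High mice depended on single mice and on the tool. The number of slow genes under 0.05 (edgeR) fell to 1, Tnni1, without High Run D62, without High Run D53, without High Control D67 and without D9 and D62 together, and it rose to 4 without High Control D23 and to 5 without High Run D49. With voom's quality weights on all 15 mice the log2 fold changes of the 5 slow genes were smaller, at 0.37 for Tnnt1, 0.54 for Tnni1, 0.37 for Tnnc1, 0.30 for Myl2 and 0.28 for Myl3. There Tnni1 had an unadjusted p = 0.0154, while Tnnt1 (limma voom, unadjusted p = 0.092) and Tnnc1 (limma voom, unadjusted p = 0.115) did not reach 0.05, and with DESeq2 all 3 did. Markers of other cells moved in the same comparison. The 4 erythroid markers each had an unadjusted p under 0.05 in High Run against High Control (edgeR), and their summed level was 299.1 to 467.9 CPM in High Control and 366.9 to 3679 CPM in High Run. The 4 macrophage markers had positive log2 fold changes, 2 of them with an unadjusted p under 0.05, and summed to 28.2 to 44.5 CPM in High Control and 39.4 to 86.6 CPM in High Run. The summed Schwann cell markers were at 124.8 to 140.0 CPM in High Control and at 90.3 (D49), 172.7 (D52), 162.7 (D53) and 283.5 CPM (D62) in High Run. The summed cardiac markers were at 6.08 to 8.69 CPM in High Control and at 9.18 to 13.3 CPM in High Run, so that only the sum separated the groups. Taken singly, Tnnt2 (3.95 to 6.14 CPM in High Control, 6.09 to 10.3 CPM in High Run) overlapped. So did Myh6 (1.29 to 2.51 and 2.12 to 4.80 CPM) and Tnni3 (0.12 to 0.62 and 0.42 to 0.60 CPM). Nppa was at 0 in every High Run mouse and at most 0.04 CPM in High Control. None of these lists had a marker at 0 in every mouse, but Nppa reached at most 0.10 CPM and Tnni3 at most 0.80 CPM in a mouse. The part of these markers in the slow gene levels was not tested. In bulk RNA, fewer fibres of a type and less RNA per fibre cannot be told apart.

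The fast partners in the same comparison had log2 fold changes from -0.38 to -0.04, and 0 of 5 reached an unadjusted p under 0.05 with edgeR or DESeq2, while with voom's quality weights Tnnc2 did (limma voom, unadjusted p = 0.0372). Those weights gave -0.30 for Tnnt3, -0.27 for Tnni2, -0.37 for Tnnc2, -0.20 for Mylpf and -0.31 for Myl1. With gene length and GC offsets Tnni2 was at -0.13. Tnnt3, fast troponin T, was at 26824, 22865 and 22417 CPM in High Control (D23, D25, D67) and 17907, 18845, 26475 and 21811 CPM in High Run (D49, D52, D53, D62). The other 3 running mice lay below every control, and D53 lay within the control range. Its log2 fold change was -0.18 ± 0.19 (SE, edgeR, unadjusted p = 0.357), from -0.30 without D53 to -0.09 without D23. Tnni2, fast troponin I, was at 9971, 8550 and 8717 CPM in High Control and 6838, 7067, 12788 and 8595 CPM in High Run, with D53 the highest of all mice. Its log2 fold change was -0.04 ± 0.21 (SE, edgeR, unadjusted p = 0.845), and its sign depended on single mice, from -0.28 without D53 to 0.05 without D49.

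Tnnc2, fast troponin C, was at 12886, 10730 and 10575 CPM in High Control (D23, D25, D67) and 8181, 8389, 14614 and 7308 CPM in High Run (D49, D52, D53, D62). D53 was the highest of all mice and the other 3 running mice were below every High Control mouse. For this gene the log2 fold change was -0.24 ± 0.25 (SE, edgeR, unadjusted p = 0.339), and it was -0.52 without D53 (edgeR, unadjusted p = 0.0289) and -0.14 without D62. Mylpf, the fast regulatory light chain, was at 8060, 8328 and 7697 CPM in High Control and 7090, 6689, 8883 and 6340 CPM in High Run, with a log2 fold change of -0.15 ± 0.23 (SE, edgeR, unadjusted p = 0.53), and -0.26 without D53 or -0.10 without D62. The High Control mice lay close together for this gene, and D53 alone was above them. Myl1, the fast essential light chain, was at 6219, 5899 and 5416 CPM in High Control and 4789, 4741, 6166 and 2302 CPM in High Run, with a log2 fold change of -0.38 ± 0.26 (SE, edgeR, unadjusted p = 0.173). The value in D62 was the lowest of all mice, and the log2 fold change was -0.17 without it and -0.57 without D53.

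In Low mice the fast genes had log2 fold changes from 0.03 to 0.40 after running, of which those of Tnnt3 and Tnni2 turned negative with voom's weights (-0.04 and -0.06). Mylpf had the largest, with 7034, 3918, 6580 and 7539 CPM in Low Control (D8, D9, D11, D98) and 11537, 6022, 8111 and 7428 CPM in Low Run (D57, D61, D66, D68). D57 and D66 exceeded all controls, and D9 was the lowest of all mice. The log2 fold change was 0.40 ± 0.21 (SE, edgeR, unadjusted p = 0.0783, FDR = 0.397), and 0.20 without D57 or 0.22 without D9. Myl1 was at 5363, 3072, 4514 and 5173 CPM in Low Control and 7054, 4900, 5760 and 4777 CPM in Low Run, with a log2 fold change of 0.31 ± 0.25 (SE, edgeR, unadjusted p = 0.224) and of 0.15 without D9 or 0.18 without D57. D57 and D66 were again the running mice above the controls.

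Tnnc2 was at 11183, 6698, 8572 and 10104 CPM in Low Control (D8, D9, D11, D98) and 14262, 8243, 9383 and 10896 CPM in Low Run (D57, D61, D66, D68), with a log2 fold change of 0.23 ± 0.23 (SE, edgeR, unadjusted p = 0.339), and 0.06 without D57 or 0.09 without D9. Tnnt3 was at 26513, 19826, 19057 and 21092 CPM in Low Control and 28225, 18018, 19523 and 24182 CPM in Low Run, and Tnni2 at 9892, 7775, 7548 and 8156 CPM and at 10378, 6912, 7540 and 9283 CPM. For all 3 troponins D57 was the only Low Run mouse above the whole control range. The log2 fold changes of Tnnt3 (0.06 ± 0.17) and Tnni2 (0.03 ± 0.19) turned negative without D57, at -0.07 and -0.08, and with gene length and GC offsets, at -0.11 and -0.14. In Low Run against Low Control 0 of 10 members passed an FDR of 0.1 (edgeR, DESeq2 and voom, background 0% with edgeR), and 0 reached an unadjusted p under 0.05 with any of these tools, where the edgeR background was 5.92% higher and 7.52% lower. Offsets for gene length and GC content also shrank other running responses of Low mice by over 1.5 times, those of Tnnt1 to 0.21, Tnnc1 to 0.18, Myl2 to 0.05 and Myl3 to 0.11, and those of Tnnc2 to 0.06, Mylpf to 0.25 and Myl1 to 0.17. With voom's weights Myl2 and Myl3 fell to 0.10 and 0.17, and Tnnc2, Mylpf and Myl1 to 0.05, 0.19 and 0.19. Leaving out D98, or leaving out D61, brought Mylpf under 0.05 (edgeR). No member separated these groups, and the background of genes without overlap was 3.35% higher and 3.59% lower.

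**Figure D2:**
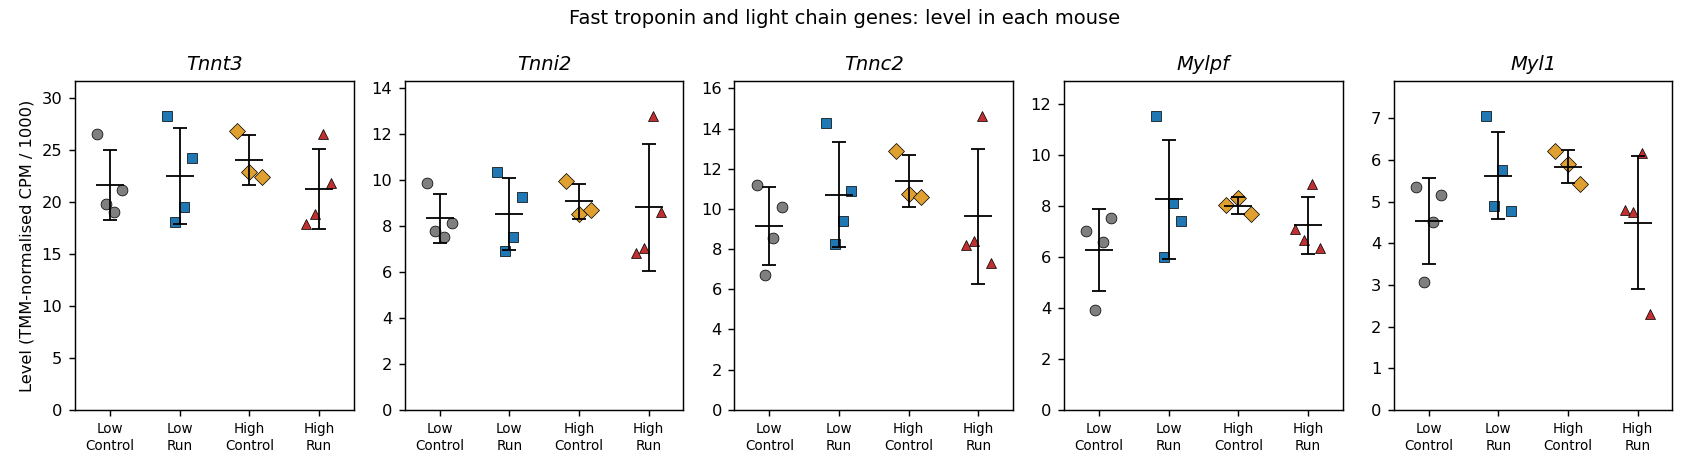
Level of each fast gene in TMM-normalised CPM divided by 1000 (linear axis from 0), with 1 point per mouse, the group mean as a horizontal bar and the SD as the error bar (n = 4, 4, 3 and 4). Low Run D57 and High Run D53 are high for most genes, and High Run D62 is lowest for Myl1 at 2302 CPM.

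At rest, mean levels of the fast genes were higher in High than in Low mice and those of the slow genes mostly lower. The groups overlapped for every gene but Mylpf and Myl1. The log2 fold changes of High Control against Low Control were 0.12 to 0.37 for the fast genes and -0.38 to 0.11 for the slow genes, and 0 of 10 passed an FDR of 0.1 (edgeR, DESeq2 and voom, background 0% with edgeR). With edgeR and DESeq2 none reached an unadjusted p under 0.05, where the edgeR background was 1.8% higher and 4.06% lower, while with voom's quality weights Tnni1 did (limma voom, unadjusted p = 0.0189). Mylpf and Myl1 did not overlap between the groups, all 3 High Control mice being above all 4 Low Control mice, and the background of such genes was 5.13% higher and 5.27% lower. The log2 fold change was 0.36 ± 0.23 (SE, edgeR, unadjusted p = 0.138) for Mylpf and 0.37 ± 0.26 (SE, edgeR, unadjusted p = 0.184) for Myl1, and these fell to 0.18 and 0.21 without Low Control D9. Tnni1 had the most negative slow value at -0.38 ± 0.29 (SE, edgeR, unadjusted p = 0.201), with 2 of 3 High Control mice below all Low Control mice. The signs of Tnnt1 and Myl2 turned positive without D67, at 0.07 and 0.03, and the value of Tnnc1 shrank from -0.22 to -0.06. Myl3, the single slow gene with a positive value, turned negative without D23, at -0.04, and with voom weights, at -0.06. The other slow values with those weights were -0.22 for Tnnt1, -0.50 for Tnni1, -0.35 for Tnnc1 and -0.38 for Myl2. The fast values were 0.15 for Tnnt3, 0.12 for Tnni2, 0.23 for Tnnc2, 0.225 for Mylpf and 0.255 for Myl1. Markers of other cells also differed in this comparison. The 4 erythroid markers summed to 299.1 to 467.9 CPM in High Control, below the 470.9 to 2262 CPM of every Low Control mouse, and the 4 endothelial markers to 182.9 to 211.8 CPM, below 213.8 to 235.6 CPM. No marker of either list was at 0 in every mouse, and their part in the resting differences was not tested.

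Between the running groups, no gene of either class separated High from Low mice. The log2 fold changes of High Run against Low Run were 0.19 to 0.30 for the slow genes and -0.32 to 0.05 for the fast genes. Without D62 they fell to 0.04 for Tnnt1, 0.001 for Tnni1, 0.02 for Tnnc1, -0.03 for Myl2 and 0.19 for Myl3, and from -0.32 to -0.11 for Myl1, whereas without D49 Tnnt1 and Myl3 passed an unadjusted p of 0.05 (edgeR, unadjusted p = 0.0464 and unadjusted p = 0.0388). With voom's quality weights Tnnt1, Tnni1, Tnnc1 and Myl2 turned negative, at -0.16, -0.18, -0.24 and -0.18. No member passed an FDR of 0.1 or an unadjusted p under 0.05 with edgeR, DESeq2 or voom on all mice (edgeR background 0% at that FDR, and at that p 1.52% higher and 0.987% lower), and the background of genes without overlap was 0.721% higher and 0.774% lower. High Run mice spread more than Low Run mice for each slow gene, with coefficients of variation of 38.7% to 48.4% against 16.3% to 26.1%. Among the High Run mice D49 was lowest for all 5 slow genes, and D53 and D62 were the upper 2.

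The Frailty × Run interaction, the running response of High mice minus that of Low mice, was positive for 5 of 5 slow genes (0.19 to 0.63) and negative for 5 of 5 fast genes (-0.69 to -0.07). Over all tested genes it was positive for 8984 of 16920. This term is formed from the same mice as the 2 responses above. Some summed marker levels went opposite ways in Low and High mice after running (group means). Erythroid markers went from 1055 to 464.1 CPM in Low mice and from 365.5 to 1559 CPM in High mice. Schwann cell markers went from 125.2 to 96.1 and from 133.9 to 177.3 CPM, and myofibre markers from 70084 to 76797 and from 81161 to 69328 CPM. Their part in the interaction was not tested. The sign for Tnni2 turned with length and GC offsets (0.01) and without D57 (0.04). The most positive was Tnni1 at 0.63 ± 0.39 (SE, edgeR, unadjusted p = 0.123), and the most negative were Myl1 at -0.69 ± 0.36 (SE, edgeR, unadjusted p = 0.0748) and Mylpf at -0.55 ± 0.31 (SE, edgeR, unadjusted p = 0.0987). No member passed an FDR of 0.1 (edgeR, DESeq2 and voom, background 0% with edgeR) or, on all mice, an unadjusted p under 0.05 with any of them (edgeR background 5.24% higher and 2.69% lower) other than Myl1 with voom (limma voom, unadjusted p = 0.0323). With voom's weights the slow values were 0.06 for Tnnt1, 0.32 for Tnni1, 0.11 for Tnnc1, 0.20 for Myl2 and 0.11 for Myl3. Leaving out D53 brought Tnnc2 and Myl1 under 0.05, leaving out D49 brought Tnni1, and leaving out D61 brought Mylpf (edgeR). Without D62 the value of Tnni1 was 0.39 (edgeR, unadjusted p = 0.289), those of Tnnt1, Tnnc1 and Myl2 fell from 0.31, 0.50 and 0.36 to 0.14, 0.24 and 0.15, and that of Mylpf was -0.34 without D57 (edgeR, unadjusted p = 0.248). The difference for Myl1 was -0.47 without D62 and -0.88 without D53. Myl3 turned negative, at -0.04, without D67. In High Run against High Control none of the 10 genes separated the groups in CPM, where the background was 3.47% higher and 3.6% lower.

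**Figure D3:**
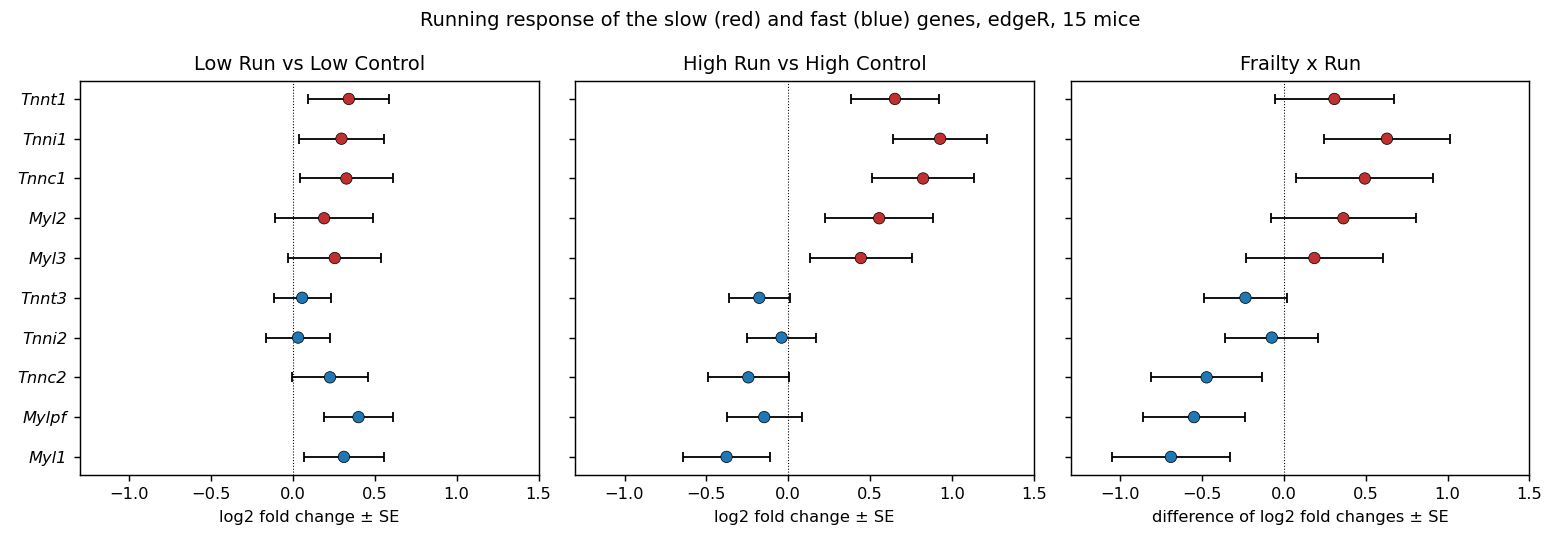
Log2 fold change after running in Low mice (left) and High mice (middle) and the difference of the 2 (right) for the slow genes (red) and fast genes (blue), as edgeR estimates with SE as error bars over 15 mice. In High mice the slow genes lie to the right of 0 (0.44 to 0.93) and the fast genes to the left (-0.38 to -0.04).

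The slow-to-fast ratio was formed within each mouse for every pair from the levels per kb, so that library size cancels, and is given as a description without a test. Averaged over the 5 pairs, the log2 ratio was -5.99, -5.71, -5.66 and -5.61 in Low Control (D8, D9, D11, D98) and -6.42, -5.07, -5.63 and -5.55 in Low Run (D57, D61, D66, D68). It was -6.06, -6.00 and -6.52 in High Control (D23, D25, D67) and -6.20, -5.39, -5.35 and -4.52 in High Run (D49, D52, D53, D62). The High Control mice were all below the Low Control mice, although D25 (-6.004) lay only just below D8 (-5.993). In High Run, 3 of 4 mice were above all High Control mice.

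The mean ratio of the resting mice was -5.74 ± 0.17 (SD, n = 4) for the Low group and -6.19 ± 0.29 (n = 3) for the High group. After running it was -5.67 ± 0.56 (n = 4) for the Low group and -5.37 ± 0.69 (n = 4) for the High group. Expressed as a percentage, the slow level per kb was 1.87% of the fast level in Low Control, 1.97% after running in Low mice, 1.37% in High Control and 2.42% after running in High mice. The difference after running was 0.83 in High mice, or 1.48 times the pooled SD, and 0.55 without D62. In Low mice it was 0.08 and its sign depended on which mouse was left out. The difference between the control groups was -0.45, or -2.02 times the pooled SD, and shrank to -0.29 without D67. The difference between the running groups was 0.30, falling to 0.02 without D62. That of the 2 running responses was 0.75, or 0.47 without D62.

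By pair, troponin I gave the clearest separation after running in High mice. The Tnni1/Tnni2 log2 ratio was -7.55, -7.47 and -7.84 in High Control (D23, D25, D67) against -7.24, -6.72, -6.84 and -6.06 in High Run (D49, D52, D53, D62) and -7.42, -7.33, -6.89 and -6.82 in Low Control (D8, D9, D11, D98). High Control mice did not overlap with either group, with differences of 0.91 for High Run minus High Control (0.69 without D62) and of -0.51 for High Control minus Low Control. The Myl2/Mylpf ratio of High Control (-5.37, -5.84 and -6.24) also lay below that of every Low Control mouse (-5.34 to -5.09), with a larger difference of -0.59. No background share was formed for ratios. For genes in CPM, the background without overlap was 3.47% higher and 3.6% lower in High Run against High Control. In High Control against Low Control it was 5.13% higher and 5.27% lower.

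The other pairs overlapped between groups. The Tnnc1/Tnnc2 ratio differed by 1.00 after running in High mice, from -6.51 ± 0.28 to -5.51 ± 0.75 (SD), and by 0.65 without D62, against 0.69 for Tnni1/Tnni2 without that mouse. The Tnnt1/Tnnt3 ratio differed by 0.76 in that comparison and Myl3/Myl1 by 0.85, or 0.61 and 0.43 without D62. Myl2/Mylpf, which overlapped in that comparison, differed by 0.63, or 0.36 without D62, and D49 lay below every High Control mouse. In D62 the slow essential light chain reached 23.8% of its fast partner per kb, against 3.69% to 9.93% in the other 14 mice, and this mouse also had the lowest Myl1. The mouse at the opposite end was Low Run D57, with Myl3 at 3.69% of Myl1.

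**Figure D4:**
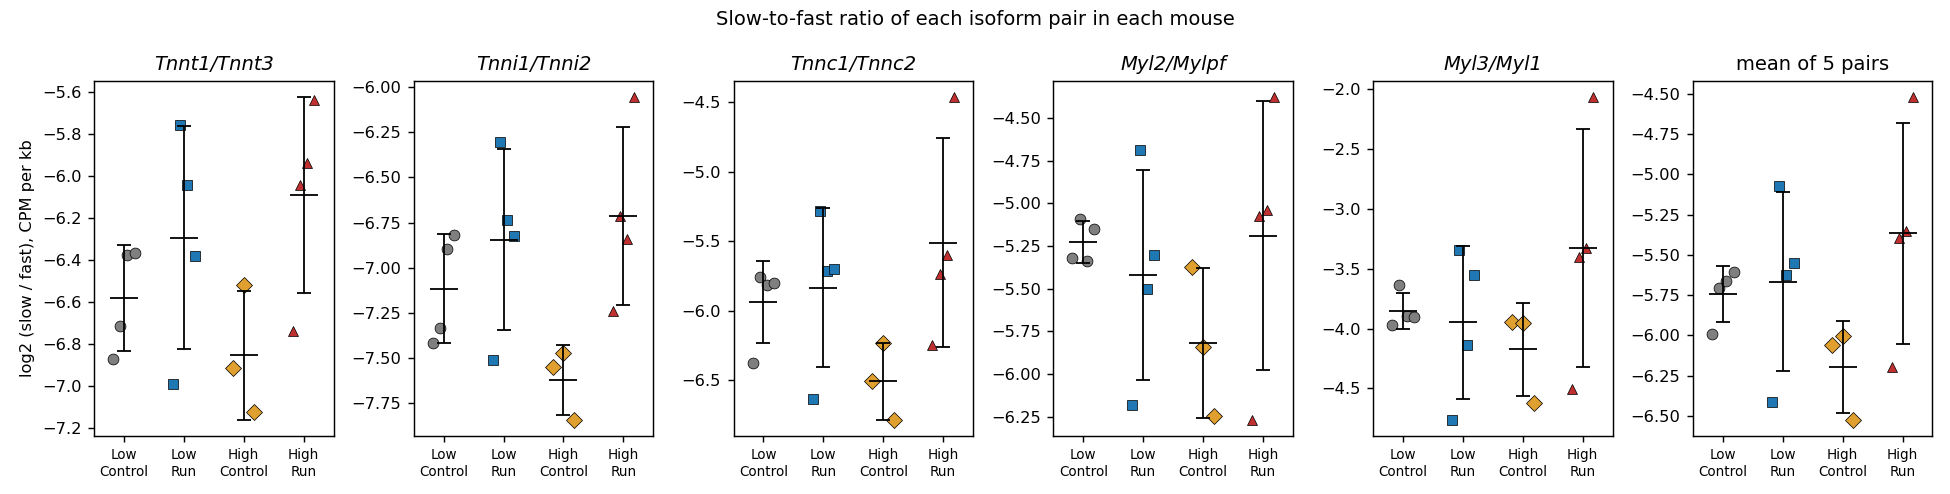
Log2 ratio of slow to fast level (CPM per kb of exon) for each pair and for the mean of the 5 pairs, with 1 point per mouse, the group mean as a horizontal bar and the SD as the error bar. The vertical axes differ between panels, and in the Tnni1/Tnni2 panel the High Control mice lie below every Low Control and High Run mouse.

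Mice with a high level of 1 slow gene had high levels of the others, whereas slow and fast levels showed little relation. Over 15 mice the Pearson correlation of log2 CPM was 0.84 to 0.98 (median 0.92) for the 10 slow pairs, 0.37 to 0.93 (median 0.78) for the 10 fast pairs and -0.34 to 0.33 (median 0.09) for the 25 mixed pairs. The points share their library, and the values are descriptions. Without D9 and D62 the ranges were 0.81 to 0.97, 0.66 to 0.96 and -0.14 to 0.34, and with group means removed the medians were 0.94, 0.76 and 0.17. In level, D53 was high on both, D62 was high only for slow genes, D57 only for fast genes and D9 was low on both.

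**Figure D5:**
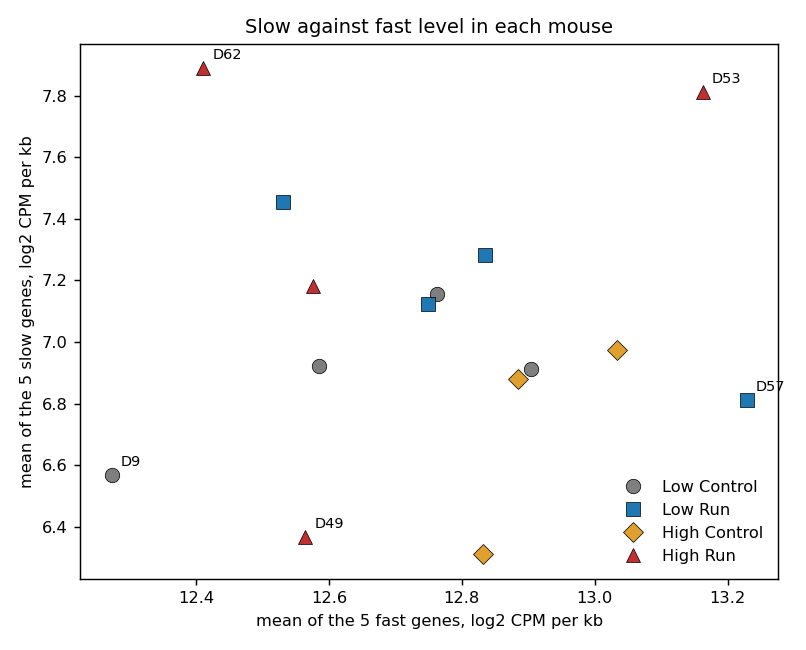
Mean log2 CPM per kb of the 5 slow genes (vertical) against that of the 5 fast genes (horizontal), 1 point per mouse with symbols for the 4 groups. D53 and D62 share the highest slow levels (7.81 and 7.89) but differ in the fast level (13.2 and 12.4).

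Across the whole table, the genes whose log2 CPM followed the mean ratio most closely over 15 mice were Tpm3, the slow tropomyosin (r = 0.93), Tpm3-rs7 (0.90), Myoz2 (0.86), Tecrl (0.86) and Agrp (0.86). Tpm3-rs7 is a near copy of Tpm3 whose reads may be hard to separate, and Tecrl and Agrp were at mean levels of 1.96 and 0.551 CPM. The lowest correlations were those of Mib1 (-0.88), Hexim1 (-0.85), Memo1 (-0.81), Rc3h2 (-0.80) and Sh3rf3 (-0.80). Without D9 and D62 each of these correlations was weaker. The highest then ranged from 0.76 (Myoz2) to 0.88 (Tpm3), and the lowest from -0.81 (Mib1) to -0.68 (Memo1).

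Other genes known from slow fibres were taken from a list. Of 10 listed, 10 had positive log2 fold changes in High Run against High Control (median 0.44, against 0.05 over all genes, of which 9676 of 16920 were positive), and 5 of 10 in Low Run against Low Control (median 0.02, with 8775 of all genes positive). None passed an FDR of 0.1 (edgeR background 0%), and 3 had an unadjusted p under 0.05 in High mice, all higher (edgeR background 3.28% higher and 1.9% lower). These were Tpm3 at 0.75 ± 0.29 (SE, edgeR, unadjusted p = 0.0196), Myoz2, a Z-disc protein of slow fibres, at 0.62 ± 0.26 (SE, edgeR, unadjusted p = 0.028), and Csrp3, a muscle LIM protein, at 0.79 ± 0.37 (SE, edgeR, unadjusted p = 0.0469). Myh7, the slow myosin heavy chain, was at 721.8, 932 and 552.3 CPM in High Control and 774, 1153, 927.6 and 1649 CPM in High Run (D49, D52, D53, D62), with a log2 fold change of 0.62 ± 0.33 (SE, edgeR, unadjusted p = 0.0803). D52 and D62 were above all High Control mice. Without D62 these log2 fold changes were 0.41 for Tpm3 (edgeR, unadjusted p = 0.103), 0.36 for Myoz2 (edgeR, unadjusted p = 0.134), 0.66 for Csrp3 (edgeR, unadjusted p = 0.109) and 0.36 for Myh7 (edgeR, unadjusted p = 0.272). Csrp3 ranged from 0.52 without D25 to 1.44 without D23.

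Of 10 other fast-fibre genes, 1 had a positive log2 fold change in High mice (median -0.35) and 5 in Low mice (median -0.01), and none passed an FDR of 0.1 (edgeR background 0%). Myh4, the heavy chain of the fastest fibres, had a log2 fold change of -0.48 ± 0.17 (SE, edgeR, unadjusted p = 0.0133) in Low mice and -0.44 in High mice, and Mybpc2, fast myosin-binding protein C, had -0.40 ± 0.16 (SE, edgeR, unadjusted p = 0.0242) and -0.40. Both were past the unadjusted threshold in each frailty group on all mice (edgeR background 7.52% lower in Low and 1.9% lower in High mice), but not in High mice without D62 (edgeR, unadjusted p = 0.0763 and unadjusted p = 0.0585) nor in Low mice without D8, at -0.37 and -0.23 (edgeR, unadjusted p = 0.0556 and unadjusted p = 0.136). The fast troponins and light chains of Low mice had positive edgeR values on all mice. Those of Tnnt3 (0.06) and Tnni2 (0.03) turned negative with voom's weights and with length and GC offsets. Atp2a1, the fast calcium pump, was at -0.31 ± 0.15 (SE, edgeR, unadjusted p = 0.0518) in High mice, and the interaction of Pvalb, which buffers calcium, was -0.73 ± 0.41 (SE, edgeR, unadjusted p = 0.0903). Low Run D57 stood apart for Pvalb, at 10462 CPM against 5271 to 6293 CPM in the other Low Run mice.

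Of the 8 cardiac and developmental isoforms, 7 passed the filter and 0 passed an FDR of 0.1 (edgeR background 0% in each comparison). At an unadjusted p under 0.05 the edgeR background was 3.28% higher in High mice, 5.92% higher in Low mice and 2.69% lower for the interaction. Myh3, the embryonic heavy chain, was at 11.6, 4.80 and 6.89 CPM in High Control and 10.5, 15.5, 23.8 and 26.2 CPM in High Run, with a log2 fold change of 1.29 ± 0.32 (SE, edgeR, unadjusted p = 0.00104, FDR = 0.956). Only D49 overlapped with the controls, and the value without D62 was 1.09. Myl4, the embryonic and atrial essential light chain, had 1.02 ± 0.44 (SE, edgeR, unadjusted p = 0.0328) in High mice and 0.71 without D62 (edgeR, unadjusted p = 0.117). Actc1, cardiac actin, had an interaction of -2.29 ± 0.89 (SE, edgeR, unadjusted p = 0.0202), and -1.44 without D25 (edgeR, unadjusted p = 0.119). Tnni3, cardiac troponin I, had 1.04 ± 0.43 (SE, edgeR, unadjusted p = 0.0277) in Low mice at levels under 1 CPM, and 0.91 without D9 (edgeR, unadjusted p = 0.0707).

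Among 6 genes for phosphorylation of the regulatory light chain, 0 passed an FDR of 0.1 (edgeR background 0% in each comparison). The edgeR background at an unadjusted p under 0.05 was 7.52% lower in Low mice. It was 1.52% higher in High Run against Low Run and 4.06% lower in High Control against Low Control. Mylk2, the skeletal light chain kinase, was at 2134, 3457, 839.8 and 892.1 CPM in Low Control (D8, D9, D11, D98) and 881, 970.2, 760.5 and 647.4 CPM in Low Run, with a log2 fold change of -1.17 ± 0.46 (SE, edgeR, unadjusted p = 0.023), and -0.67 without D9 (edgeR, unadjusted p = 0.141). The control group was split, with D8 and D9 far above the other 2 mice, and High Run D62 was at 2356 CPM. Mylk, the smooth muscle kinase, was at 0.30 ± 0.11 (SE, edgeR, unadjusted p = 0.0178) in High Run against Low Run, and 0.22 without D61 (edgeR, unadjusted p = 0.0719). Of 3 other light chains, Myl12a, a nonmuscle regulatory chain, was at -0.46 ± 0.17 (SE, edgeR, unadjusted p = 0.0163) in High Control against Low Control, with a highest p without 1 mouse of 0.0613 (without D67).

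Of 7 other thin filament genes, none passed an FDR of 0.1 (edgeR background 0% in each comparison). The edgeR background at an unadjusted p under 0.05 was 1.9% lower in High mice and 5.24% higher for the interaction. Tmod1, which caps the pointed end of actin, was at -0.52 ± 0.16 (SE, edgeR, unadjusted p = 0.005) in High Run against High Control, and Lmod2, an actin nucleator, had an interaction of 0.93 ± 0.42 (SE, edgeR, unadjusted p = 0.0423) that was 0.60 without D62 (edgeR, unadjusted p = 0.115). Of 21 regulators of fibre type, 0 passed an FDR of 0.1 (edgeR background 0% in each comparison). At an unadjusted p under 0.05 the edgeR background in High mice was 3.28% higher and 1.9% lower. It was 7.52% lower in Low mice and 4.06% lower in High Control against Low Control. Myog, a myogenic transcription factor, was at 5.52, 10.6 and 4.64 CPM in High Control and 14.0, 15.4, 8.33 and 48.5 CPM in High Run, with a log2 fold change of 1.64 ± 0.54 (SE, edgeR, unadjusted p = 0.00852), and 0.85 without D62 (edgeR, unadjusted p = 0.0588). D62 had the highest value of all mice and D53 lay among the controls. In Low mice Mef2d, a MADS-box factor, was at -0.52 ± 0.21 (SE, edgeR, unadjusted p = 0.0241), and -0.30 without D9 (edgeR, unadjusted p = 0.121). Six4 was at -0.35 ± 0.16 (SE, edgeR, unadjusted p = 0.0448) in High Control against Low Control and at -0.27 without D98 (edgeR, unadjusted p = 0.129). Its cofactor Eya1 was at -0.42 ± 0.20 (SE, edgeR, unadjusted p = 0.0497) in High Run against High Control, falling to -0.29 without D62 (edgeR, unadjusted p = 0.138).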

How the data were processed

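RNA from the gastrocnemius of 15 mice was used in 4 groups taken from the sample labels. The authors aligned reads to mm10 with STAR 2.7.9a and counted them with featureCounts, for which the submitters' processing notes name Subread 2.0.3 and the methods another version. The deposited count values are whole numbers per gene, without normalization, for uniquely aligned proper pairs counted by strand, with mitochondrial genes left out. The authors also deposited a variance-stabilizing transformation on a log2-like scale, which was used for 1 alternative. Counts were analysed in R 4.3.3 with edgeR 4.0.16 (filterByExpr, TMM, quasi-likelihood F-test with 1 mean per group over all 15 mice, Benjamini-Hochberg adjustment over 16920 genes, FDR of 0.1). CPM used TMM library sizes, and levels per kb used merged GENCODE M21 exons on GRCm38, in which 55104 of 55450 genes had a symbol. Correlations used log2(CPM + 0.5).

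Alternatives were DESeq2 1.42.0, voom with quality weights (limma 3.58.1), RLE normalization, no filter, only the groups compared, an FDR of 0.05, offsets per mouse fitted to GC content and length of each gene (loess, span of 0.3), and leaving out each mouse, or D9 and D62 together. For the ratio they were summed levels, the median over pairs and the deposited log2-like values. Tested on simulated data of 16605 genes in which 200 had been shifted by 2 log2 units in High Run mice, edgeR recovered 188 of them among 201 calls in High Run against High Control. The members' own log2 fold changes in that comparison were smaller, from -0.38 to 0.93. Shifts of that size were not simulated, so the recovery does not show how many such changes would be found. The members and lists were chosen with earlier results of these data known. Genes named are every member, up to 4 per list with the smallest p in any comparison, and the 5 highest and 5 lowest correlations with the mean ratio. Myl12b matched several identifiers and was left out.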

Additional observations from a re-analysis of the deposited data

Results flagged for a closer look

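In a screen of 48 groups of 4 mice (10 genes and 6 ratios in the 3 groups of that size), 2 single mice stood apart from the rest of their group by Dixon's criterion, and chance alone gives about 1 in 20 groups. High Run D53 had 14614 CPM of Tnnc2, and its gap to the nearest mouse was 0.852 of the group's range. Low Control D8 had a Tnnc1/Tnnc2 log2 ratio of -6.38, with a gap of 0.913 of the range. Groups of 3 mice were not screened.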

How the results depend on the processing

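Recomputations that leave out a mouse of a group outside the comparison are not counted here, since they move its values little or not at all. In 84 others the count of members past the FDR threshold was 0. The 65 recomputed differences of the mean slow-to-fast ratio moved by less than the pooled SD, which is a wide margin. That SD (0.41 and 0.62) exceeded the difference itself in Low Run against Low Control (0.08) and in High Run against Low Run (0.30). When single mice were left out, these 2 differences ranged from -0.12 to 0.33 and from 0.02 to 0.58. The number of members with an unadjusted p under 0.05 moved by over 1.5 times in 13 recomputations and did not in 66. Of the recomputed log2 fold changes, 36 changed sign, 754 did not, and the cause was not tested.

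With voom's quality weights the sign turned in Low Run against Low Control for Tnnt3 (-0.04) and Tnni2 (-0.058), in High Control against Low Control for Myl3 (-0.061), and in High Run against Low Run for Tnnt1 (-0.16), Tnni1 (-0.18), Tnnc1 (-0.24), Myl2 (-0.18) and Tnni2 (-0.092). With length and GC offsets it turned for Tnnt3 (-0.11) and Tnni2 (-0.14) in Low mice and for the interaction of Tnni2 (0.011). Without D9 and D62 it turned for Tnni2 in Low mice (-0.012) and for Myl2 in High Run against Low Run (-0.029).

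Leaving out single mice, the ranges that crossed 0 were -0.072 to 0.17 for Tnnt3 and -0.077 to 0.12 for Tnni2 in Low mice, and -0.28 to 0.054 for Tnni2 in High mice. At rest they were -0.23 to 0.068 for Tnnt1, -0.43 to 0.033 for Myl2 and -0.044 to 0.34 for Myl3. In High Run against Low Run they were -0.029 to 0.44 for Myl2, -0.20 to 0.048 for Tnnt3, -0.18 to 0.16 for Tnni2, -0.43 to 0.018 for Tnnc2 and -0.32 to 0.013 for Mylpf. For the interaction they were -0.043 to 0.42 for Myl3 and -0.31 to 0.036 for Tnni2.

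Depth was no limit for the members, the lowest count in a library being 1910 (Tnni1). The number of mice, 3 or 4 per group, limits the precision. No paired analysis was possible because each mouse belongs to 1 group and the mouse numbers are unique.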
